A study of Mus musculus with 6 samples.

Results

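Plasminogen activators and serpin inhibitors were examined as a set of 8 genes, listed by name, of the 24214 RefSeq features counted in each sample. The set holds both plasminogen activators (Plau and Plat), the cell surface receptor of the first (Plaur) and 5 serpins (Serpine2, Serpinb2, Serpinb5, Serpinf1 and Serpinh1). All 8 were in the count tables, and 7 passed the filter on low counts that left 13892 genes for testing. Expression was measured by total RNA-seq on the SOLiD platform in 393P, an epithelial murine lung adenocarcinoma (LUAD) cell line labelled as C57BL/6. The cells were stable transfectants that carried either a ZEB1 expression vector (393P_ZEB1, n = 3) or the empty vector (393P_vector, n = 3), and both were grown in RPMI-1640 with 10% FCS. The comparison asks how transcript levels differ when ZEB1, a transcription factor that drives epithelial-to-mesenchymal transition (EMT), is expressed ectopically. The labels do not say whether the lines are clones or pools, or whether the 3 samples of a group were separate cultures, so the p-values below measure the spread between these samples, which may be technical. With 1 pair of lines, an effect of ZEB1 and any other difference between the lines cannot be told apart.

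Plasminogen is a circulating zymogen that urokinase (uPA, encoded by Plau) and tissue plasminogen activator (tPA, encoded by Plat) cleave to plasmin, a protease that degrades fibrin and several extracellular matrix proteins. Urokinase acts mainly while bound to its receptor uPAR (Plaur) on the cell surface, and the system is known for its part in pericellular proteolysis in wound repair and tumor invasion. Serpins inhibit serine proteases by presenting a reactive loop as bait and trapping the enzyme in a covalent complex, but the family also holds members without this activity, such as the collagen chaperone HSP47.

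Total counts were between 54442450 and 79158012 per sample. A floor of 3 counts equalled 0.0361 to 0.0561 CPM (reads of a gene relative to the TMM-scaled total of its library). Levels below this floor, such as those of Serpinf1 and Plg in some samples, are printed and enter means but are not resolved. Zeb1 itself was at 21.16, 22.01 and 21.41 CPM in the vector samples and 54.88, 48.89 and 51.27 CPM in the ZEB1 samples (log2 fold change 1.26, SE 0.105, adjusted p = 6.06e-05 by edgeR's quasi-likelihood test), with all ZEB1 samples above all vector samples. The species of the ectopic cDNA is not stated, so how many of its reads count toward mouse Zeb1 is unknown. Of 11 epithelial markers 10 were lower in 393P_ZEB1 (against 19.3% of all genes tested). Of 8 mesenchymal markers 7 were higher (against 18.3%), among them Zeb1 itself, the factor that was transfected. Zeb1 and Cdh2 (log2 fold change 2.04), another of the 7, lie on chromosome 18, where the median log2 fold change of tested genes was 0.636. How much of their rise is shared with the chromosome was not tested. Rab25, among the lower markers, was at 4, 5 and 4 counts in the ZEB1 samples. It passed the filter only through the vector group and therefore had to differ. Markers of other cell types were low throughout: 8 leukocyte markers summed to 2.74 to 4.996 CPM in the vector samples and 1.80 to 2.19 in the ZEB1 samples, 6 endothelial markers to 2.37 to 2.69 and 0.684 to 0.983, and 8 fibroblast markers to 2.53 to 3.45 and 2.81 to 3.65. Of these markers, Ptprc, Pecam1 and Dcn were under 0.5 CPM on average in both groups. Others reached more, among them Cd68 at 2.04, Kdr at 1.905 and Pdgfra at 1.395 CPM on average in the vector samples. Csf1r, Kdr and Pdgfra were called lower in 393P_ZEB1 by edgeR (log2 fold changes of -1.82, -2.51 and -2.01). Pdgfrb and Col3a1 were called higher (1.185 and 3.75). Col3a1 was at 10, 5 and 8 counts in the vector samples. This gene passed the filter only through the ZEB1 group and therefore had to differ. Vector replicate 3 stood apart, with 6.89% and 7.75% of genes more than 2-fold from its 2 fellow replicates, against 0.9% to 1.29% in all other pairs.

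The promoter of Serpinb5 is shown because this gene had the largest difference of the set and was the only one of 6 genes with a promoter entry to hold the E-box hexamer that ZEB1 is known to bind. The sequence is that of RefSeq, build GRCm38.p6, chr1:106860925-106861224 on the plus strand, and runs from 250 bases before to 50 bases after the annotated start. Capitals mark the hexamer, whose first base lies at position -23 from the start.

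Serpinb5: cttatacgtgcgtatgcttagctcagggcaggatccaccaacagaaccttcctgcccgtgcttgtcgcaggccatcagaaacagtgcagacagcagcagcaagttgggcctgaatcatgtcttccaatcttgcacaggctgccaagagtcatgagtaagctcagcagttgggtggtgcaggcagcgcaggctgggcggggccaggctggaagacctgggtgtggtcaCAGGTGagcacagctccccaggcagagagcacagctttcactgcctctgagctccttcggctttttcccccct

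The letters searched were CAGGTG and its reverse complement CACCTG. They occur in 6640 of 32851 promoters of this length in the table (20.21%), and in a promoter of 2061 of the 9748 tested genes with an entry (21.14%), so that 1 of 6 is close to the share among other genes. Entries were used for Plaur, Serpine2, Serpinb2, Serpinb5, Serpinf1 and Serpinh1, but not for Plau and Plat. The match is a description of this window and not evidence of binding.

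In 393P_ZEB1 cells the transcripts of both plasminogen activators moved in opposite directions: Plau was 11.7-fold lower and Plat was 1.79-fold higher. Maspin (Serpinb5) fell from a clear signal to a handful of reads, and Serpinh1 was 1.32-fold lower, whereas the receptor Plaur and the inhibitors Serpine2 and Serpinb2 did not pass the test. By count, 1 of the 7 tested genes was called higher, against 18.3% of all genes tested, and 3 were called lower, against 19.3%. The samples of both groups did not overlap for 4 of these 7, against 52.8% of all genes tested. Serpinb5 passed the filter only through the vector group and therefore had to differ, and with so few genes the counts are not read further. The median log2 fold change of all tested genes was -0.024. Since RNA was taken from whole cultures, fewer expressing cells and less RNA per cell cannot be told apart.

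**Figure D1:**
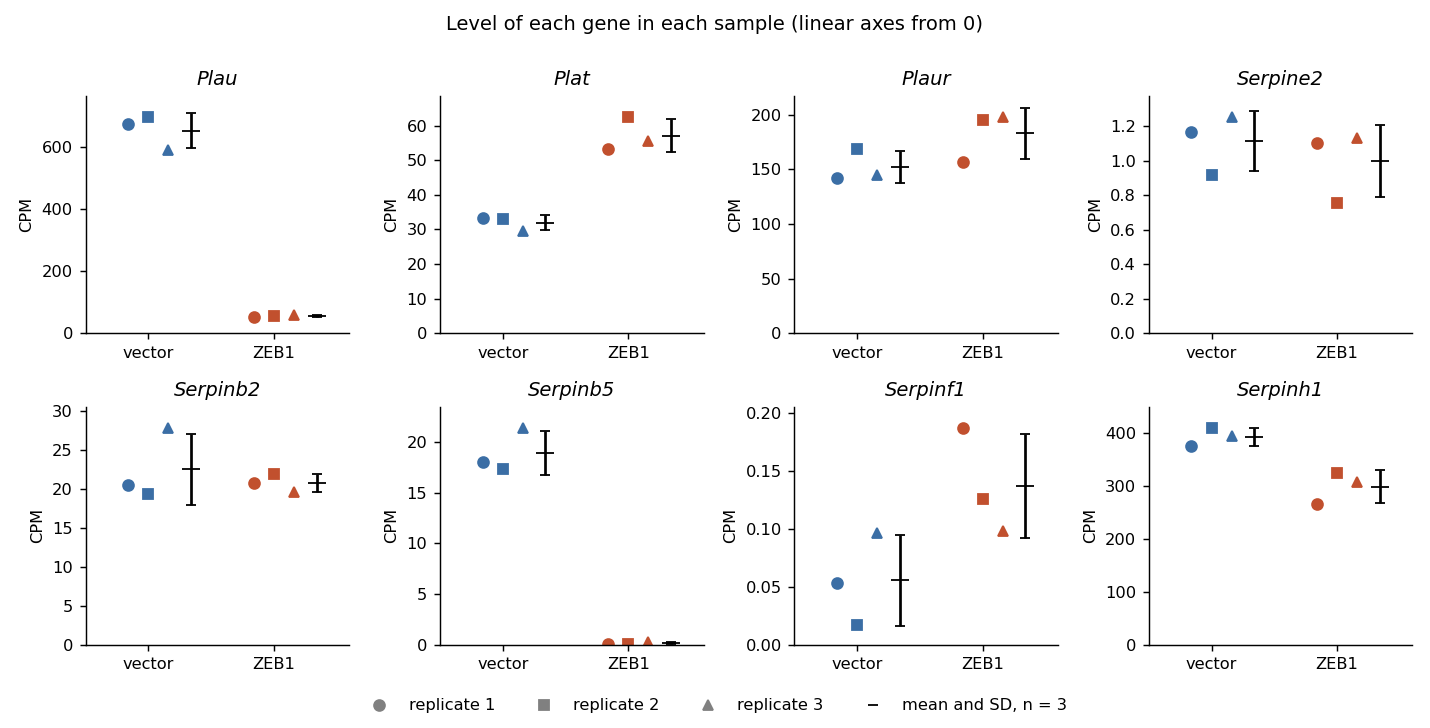
Level in CPM (counts scaled to the library size, linear axes from 0) of each of the 8 genes in each 393P_vector (blue) and 393P_ZEB1 (red) sample, with bars for the mean and SD (n = 3). Plau fell from between 590.2 and 697.2 to between 53.0 and 58.9 CPM and Serpinb5 from at least 17.3 to at most 0.278 CPM, while the samples of both groups overlap for Plaur, Serpine2 and Serpinb2.

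Plau (chromosome 14, 20836662 to 20843388, plus strand, GRCm38, as for all coordinates of genes here) encodes urokinase and was the most abundant transcript of the set in the vector cells. It was at 675.2, 697.2 and 590.2 CPM in vector replicates 1 to 3 and at 53.0, 55.7 and 58.9 CPM in ZEB1 replicates 1 to 3. Every ZEB1 sample lay far below every vector sample, and the spread within each group was small beside the gap. The means were 654.2 ± 56.5 and 55.9 ± 2.92 CPM (SD, n = 3), a log2 fold change of -3.55 (SE 0.12, adjusted p = 8.66e-07 by edgeR). The remaining signal was well above the limit of detection: 2837 to 3593 reads per ZEB1 sample, with all 11 exons over 10 reads in each of the 6 samples. Among all 24214 features ranked by length-scaled level (RPKM, computed here as CPM per kilobase of exon), Plau went from rank 198 to rank 3591.

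Plat (chromosome 8, 22757744 to 22782848, plus strand) encodes tPA, the activator best known for dissolving fibrin clots. It was at 33.2, 33.1 and 29.4 CPM in the vector samples and 53.4, 62.4 and 55.6 CPM in the ZEB1 samples. All ZEB1 samples were higher than all vector samples. The means were 31.9 ± 2.16 and 57.1 ± 4.72 CPM (SD, n = 3), a log2 fold change of 0.84 (SE 0.115, adjusted p = 0.000922 by edgeR), and Plat was the only gene of the set called higher.

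Because both activators were measured in the same libraries, their balance can be read within each sample. The ratio of Plau to Plat in RPKM was 21.98, 22.71 and 21.66 in the vector samples and 1.07, 0.964 and 1.14 in the ZEB1 samples. Urokinase transcripts thus outnumbered tPA transcripts per unit length by a wide margin in every vector sample, and the pair was at about the same level in every ZEB1 sample. The mean ratio was 22.1 ± 0.537 and 1.06 ± 0.0906 (SD, n = 3), and an exact two-sided permutation test gave p = 0.1, the smallest value that 3 samples against 3 allow.

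Plaur (chromosome 7, 24462500 to 24475873, plus strand) encodes uPAR, the lipid-anchored receptor that holds urokinase at the cell surface. It was at 142.5, 168.5 and 145.1 CPM in the vector samples and 156.3, 194.7 and 197.7 CPM in the ZEB1 samples. ZEB1 replicate 1 lay within the range of the vector samples, so the groups overlapped. The log2 fold change was 0.27 (SE 0.129, from 0.009 to 0.524 at 2 SE on each side), with an adjusted p of 0.143 by edgeR. With sample weights in limma the gene was called higher (0.327, adjusted p = 0.01), in a fit that called 3977 genes higher and 4094 lower. It was not called in the other 12 of 13 alternative fits, among them edgeR without vector replicate 3 (0.234, adjusted p = 0.117). The log2 fold change was between 0.219 and 0.373 in all 13, so a small rise is neither called nor excluded.

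The ligand and its receptor thus changed places in abundance. The ratio of Plau to Plaur in RPKM was 2.82, 2.46 and 2.42 in the vector samples and 0.202, 0.17 and 0.177 in the ZEB1 samples, with no overlap (exact permutation p = 0.1, the smallest possible). In the vector cells the order of levels was Plau at 280.5 RPKM, Serpinh1 at 161.3, Plaur at 109.5, Plat at 12.7, Serpinb2 at 11.03, Serpinb5 at 7.39, Serpine2 at 0.544 and Serpinf1 at 0.0373, and only the neighbours Plat and Serpinb2 overlapped in their samples. In the ZEB1 cells the order was Plaur at 131.7 RPKM, Serpinh1 at 122.7, Plau at 23.9, Plat at 22.7, Serpinb2 at 10.2, Serpine2 at 0.487, Serpinf1 at 0.0922 and Serpinb5 at 0.0531. There the samples of Plaur and Serpinh1, of Plau and Plat, and of Serpinf1 and Serpinb5 overlapped, so the order within these pairs is not resolved.

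**Figure D2:**
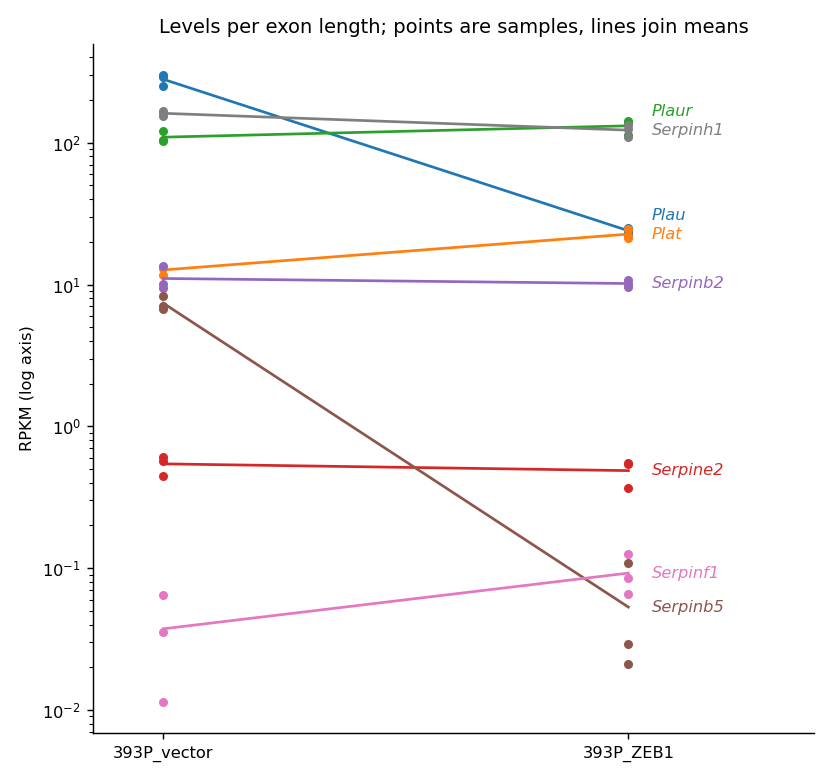
Length-scaled level (RPKM, log axis) of each of the 8 genes in each 393P_vector (left) and 393P_ZEB1 (right) sample, 1 point a sample, with a line joining the means of a gene. Plau leads the vector cells at 280.5 RPKM on average and lies beside Plat in the ZEB1 cells, at 23.9 against 22.7, while Serpinb5 moves from sixth to last place.

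Of the inhibitory serpins, Serpine2 (chromosome 1, 79794321 to 79858665, minus strand) encodes protease nexin-1, which inhibits thrombin, urokinase and tPA. It was close to the lower limit of useful signal, at 1.17, 0.918 and 1.25 CPM in the vector samples and 1.103, 0.756 and 1.13 CPM in the ZEB1 samples. The groups overlapped, and at most 4 of its 9 exons had over 10 reads in any sample. The log2 fold change was -0.16 (SE 0.246, from -0.652 to 0.331 at 2 SE on each side, adjusted p = 0.643 by edgeR), and the test therefore neither called a difference nor narrowed it beyond this interval.

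Serpinb2 (chromosome 1, 107511423 to 107525600, plus strand) encodes plasminogen activator inhibitor-2, a largely intracellular serpin that inhibits urokinase. It was at 20.4, 19.3 and 27.7 CPM in the vector samples and 20.7, 21.9 and 19.5 CPM in the ZEB1 samples. The vector group spanned the whole ZEB1 group, because its replicate 3 lay above all other samples. The log2 fold change was -0.12 (SE 0.161, from -0.442 to 0.203 at 2 SE on each side, adjusted p = 0.596 by edgeR), and without vector replicate 3 it was 0.06.

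Serpinb5 (chromosome 1, 106861180 to 106883348, plus strand) encodes maspin, an epithelial serpin described as a tumor suppressor that does not inhibit proteases in the usual way. It was counted 1022, 1019 and 1772 times in the vector samples and 4, 3 and 17 times in the ZEB1 samples, or 18.1, 17.3 and 21.3 CPM against 0.0748, 0.054 and 0.278 CPM. Every ZEB1 sample lay far below every vector sample, and ZEB1 replicate 2 was at the level of 3 counts. All 7 exons had over 10 reads in each vector sample, and none did in any ZEB1 sample. The mean was 139.3-fold lower in 393P_ZEB1 (log2 fold change -7.06, SE 0.435, adjusted p = 1.38e-05 by edgeR), a size that rests on few reads in the ZEB1 group. Without ZEB1 replicate 3 the log2 fold change was -8.15 (adjusted p = 2.35e-05 by edgeR).

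Serpinf1 (chromosome 11, 75410029 to 75422623, minus strand) encodes pigment epithelium-derived factor, a secreted serpin without protease inhibition that is known as an inhibitor of angiogenesis. It was counted 3, 1 and 8 times in the vector samples and 10, 7 and 6 times in the ZEB1 samples. At 0.053, 0.017 and 0.0963 CPM against 0.187, 0.126 and 0.0983 CPM the groups did not overlap, but vector replicate 3 and ZEB1 replicate 3 were almost equal. No exon had over 10 reads in any sample, and the gene did not pass the filter. Fitted without the filter, its log2 fold change was 1.17 with an adjusted p of 0.208 by edgeR, and it is best described as near the limit of detection in both groups.

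Serpinh1 (chromosome 7, 99345375 to 99353239, minus strand) encodes HSP47, a chaperone of the endoplasmic reticulum that binds folded procollagen and is no protease inhibitor. It was at 375.9, 409.2 and 395.0 CPM in the vector samples and 265.4, 324.8 and 307.3 CPM in the ZEB1 samples. All ZEB1 samples lay below all vector samples. The means were 393.3 ± 16.7 and 299.2 ± 30.5 CPM (SD, n = 3), a log2 fold change of -0.39 (SE 0.112, adjusted p = 0.0266 by edgeR). This call is marginal. In a fit that added the replicate numbers as a block, the adjusted p was 0.0507 (log2 fold change -0.399), and without any 1 sample other than vector replicate 3 it was between 0.0521 and 0.0897, while the direction held in each of these fits.

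The wider plasminogen system was read from a list of 20 partners: the zymogen, its surface receptors, related activating proteases, clearance receptors and further inhibitors. Of these, 13 were tested, 1 was higher (against 18.3% of all genes tested), 4 were lower (against 19.3%) and 8 were not called, and the median log2 fold change of the tested partners was -0.349. Plasminogen itself (Plg) was at 0.0396 and 0.0393 CPM on average, near the limit of detection, as were the other 6 partners that were not tested.

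Partners that were called lower included St14, the gene of matriptase, an epithelial membrane protease that can activate pro-urokinase. It averaged 98.8 ± 26.8 CPM in the vector cells and 0.424 ± 0.194 CPM in the ZEB1 cells (log2 fold change -7.85, SE 0.391, adjusted p = 5.29e-06 by edgeR). Igf2r, a receptor for mannose 6-phosphate proteins that also binds uPAR and plasminogen, had a log2 fold change of -1.51 (SE 0.143, adjusted p = 0.000141), and Ctsb, the lysosomal protease cathepsin B, one of -0.53 (SE 0.092, adjusted p = 0.00299). Serpini1, the gene of neuroserpin, a tPA inhibitor, was the partner called higher, from 0.483 to 1.32 CPM (log2 fold change 1.41, SE 0.372, adjusted p = 0.0205), but its call was lost without vector replicate 1 and without each ZEB1 replicate in turn (adjusted p from 0.0536 to 0.0735).

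Several other surface proteins of the system were not called. S100a10, which with annexin A2 forms a plasminogen receptor, had a log2 fold change of -0.46 (adjusted p = 0.0608 by edgeR) and its partner Anxa2 of 0.05. The endocytic receptor Lrp1, which clears complexes of activators with their inhibitors, was at -0.44 (adjusted p = 0.107). The plasminogen receptor gene Plgrkt, listed in the tables as 5033414D02Rik, was at 0.40 (adjusted p = 0.155). Without vector replicate 3, S100a10 and Lrp1 were called lower (edgeR adjusted p = 0.00115 and 0.00269) and 5033414D02Rik was called higher (log2 fold change 0.625, adjusted p = 0.0021), and limma with sample weights called all 3 in these directions. S100a10 was also called lower by DESeq2 with all samples (adjusted p = 0.0364).

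**Figure D3:**
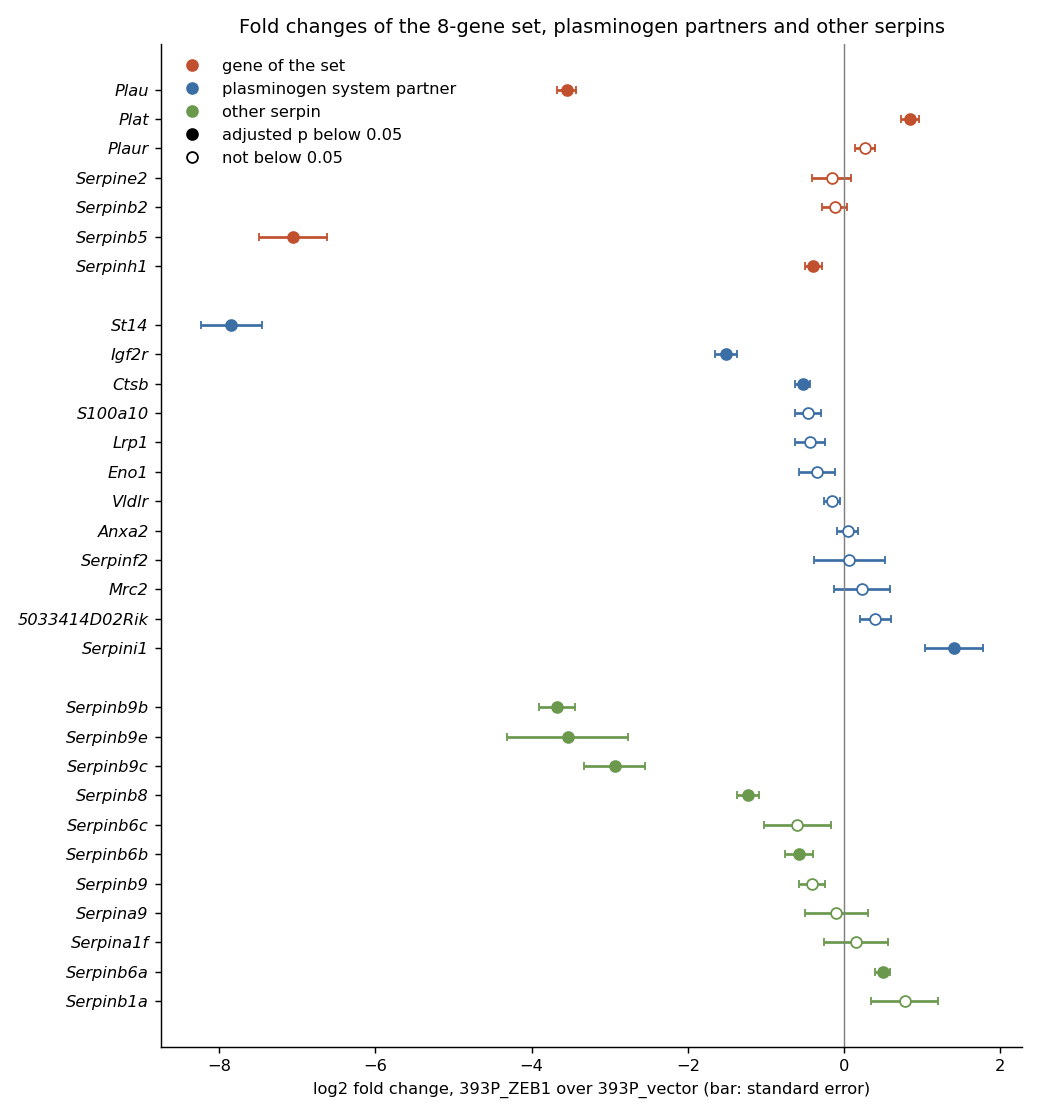
Log2 fold change (393P_ZEB1 against 393P_vector, edgeR, bars of 1 SE, filled points with adjusted p below 0.05) of the 7 tested genes of the set, the tested plasminogen partners and the other tested serpins that are reported here. Serpinb5 at -7.06 and the partner St14 at -7.85 lie farthest below 0, while Plat at 0.84 is the only gene of the set called higher.

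For Serpinh1 the relevant surroundings are the proteins that fold and modify collagen in the endoplasmic reticulum, read from a list of 20 genes. All 20 were tested, 6 were higher (against 18.3% of all genes tested), 4 were lower (against 19.3%) and 10 were not called, with a median log2 fold change of 0.201. Serpinh1 was at -0.39. P4ha3, a subunit of collagen prolyl 4-hydroxylase, rose from 2.11 to 15.8 CPM (log2 fold change 2.90, adjusted p = 5.42e-06 by edgeR), and Fkbp10, a prolyl isomerase that acts with HSP47 on procollagen, rose from 119.9 to 241.8 CPM (1.01, adjusted p = 0.000701). The prolyl 3-hydroxylase gene Lepre1 rose by 1.12 (adjusted p = 0.00103) and Lman1, a cargo receptor for secreted proteins, by 0.65 (adjusted p = 0.00152). Lman1 lies on chromosome 18, where the median log2 fold change of the 396 tested genes was 0.636, against -0.037 for genes elsewhere. Its rise was thus that of a typical gene of this chromosome. Leprel4 and Fkbp9 were called higher as well, at 0.71 and 0.53, but these calls were lost in 4 and 2 of the 6 fits that left out 1 sample. Among the genes that were lower, the prolyl 3-hydroxylase gene Leprel2 fell from 2.19 to 0.123 CPM (-4.13, adjusted p = 9.56e-05; it passed the filter only through the vector group and had to differ), the lysyl hydroxylase gene Plod2 was at -0.64 (adjusted p = 0.00447) and P4ha1 at -0.46 (adjusted p = 0.0053). Hspa5, the general chaperone BiP, was at -0.48 (adjusted p = 0.0151), and its call was lost without ZEB1 replicate 1 or 2.

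Beside the 5 serpins of the set the tables hold 58 others, of which 14 were tested, 2 were higher (against 18.3% of all genes tested), 6 were lower (against 19.3%) and 6 were not called. Some of these serpins are also on the partner list, so both sets of counts partly repeat the same genes. Serpini1, called higher here, is the partner called higher above, with the same limit. Serpinb6b, called lower, lost its call in several alternative fits. Serpinb6a, an intracellular serpin, was the most abundant of the 63 and rose from 418.7 to 588.5 CPM (log2 fold change 0.49, SE 0.098, adjusted p = 0.00587 by edgeR). Its share of the summed serpin RPKM went from 45.5% ± 1.28 to 62.5% ± 0.676 (SD, n = 3), that of Serpinh1 from 32.9% ± 0.841 to 24.4% ± 1.80, that of Serpinb2 from 2.26% ± 0.504 to 2.03% ± 0.0827, and that of Serpinb5 from 1.51% ± 0.203 to 0.0107% ± 0.00982. In both lines the serpin transcripts were therefore dominated by Serpinb6a and Serpinh1. The serpins with the lowest fold changes were Serpinb9b (5.18 to 0.402 CPM, -3.68, adjusted p = 1.3e-05), Serpinb9c (0.502 CPM to 3, 4 and 4 counts), Serpinb9e (0.227 CPM to 0, 3 and 0 counts) and Serpinb8 (13.6 to 5.76 CPM, -1.24, adjusted p = 0.000355). Serpinb9c and Serpinb9e passed the filter only through the vector group and therefore had to differ, so that their 2 calls among the 6 carry no weight. The Serpinb6 and Serpinb9 genes are families of close copies whose reads can be assigned to the wrong member, so these values are uncertain.

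The position of the genes was compared with the expression around them. Serpinb5, Serpinb2 and 10 further clade B serpins lie in 1 cluster on chromosome 1, and of those 10 only Serpinb8 was tested, since the other 9 had at most 10 counts in any sample. Within 200 kb of Serpinb5, 3 genes outside the family were tested, Bcl2, Kdsr and Vps4b, and none was called (log2 fold changes of 0.17, 0.38 and 0.28). None of these 3 came near the -7.06 of Serpinb5.

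Plau had 9 tested neighbours within 200 kb, of which 2 were lower (against 19.3% of all genes tested) and 7 were not called. The lower ones were Vcl at -0.39 (adjusted p = 0.0418 by edgeR) and 6230400D17Rik at -1.44 (adjusted p = 0.0369). None came near the -3.55 of Plau. Plat had 8, of which 2 were lower (Polb and Ank1, against 19.3%) and none was higher (against 18.3%). Plaur had 11, with 1 higher (against 18.3%) and 4 lower (against 19.3%), among them Cadm4 at a distance of 6.2 kb (-2.49, adjusted p = 0.000331).

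Serpinh1 had 8 tested neighbours, of which 4 were lower (against 19.3% of all genes tested) and 1 was higher (against 18.3%). Among the lower ones, Mogat2 averaged 0.149 CPM in 393P_ZEB1, below the filter level of 0.1701 CPM. It passed the filter only through the vector group and therefore had to differ. The nearest neighbour, Mtap6 at 8.2 kb, fell from 34.8 to 0.445 CPM (-6.28, adjusted p = 6.22e-07 by edgeR), a far larger change than that of Serpinh1. Serpinf1 had 13 tested neighbours, of which 8 were higher (against 18.3%) and none was lower (against 19.3%), led by Tlcd2 (0.698 to 9.65 CPM, 3.76, adjusted p = 4.26e-05). Serpine2 had 3, of which 2 were lower (Ap1s3 and Wdfy1, against 19.3%), and Serpinb2 had 1, Serpinb8 at 64.4 kb, which was lower. With so few neighbours for each gene, these counts are not read further. The median log2 fold change of the tested genes on a chromosome was -0.264 for chromosome 14 (Plau), -0.046 for 8 (Plat), -0.013 for 7 (Plaur, Serpinh1), 0.064 for 1 (Serpine2, Serpinb2, Serpinb5) and 0.266 for 11 (Serpinf1), over a range of -0.429 to 0.636 for all chromosomes with at least 100 tested genes.

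**Figure D4:**
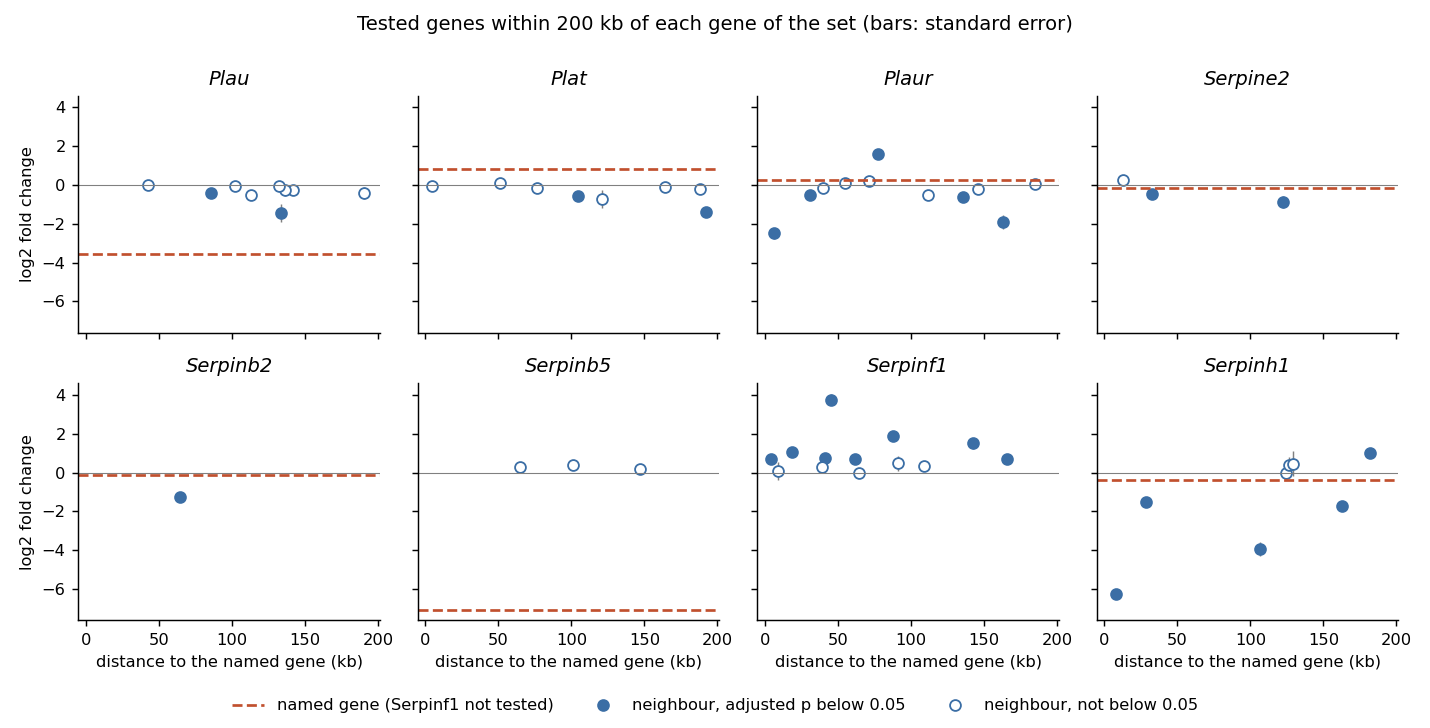
Log2 fold change of the tested genes within 200 kb of each of the 8 genes, against the distance to the named gene in kb, with bars of 1 SE, filled points for adjusted p below 0.05 and a dashed line at the named gene's own value (none for Serpinf1). Plau at -3.55 and Serpinb5 at -7.06 lie below all their neighbours, whereas Mtap6, 8.2 kb from Serpinh1, lies at -6.28.

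The genes whose pattern over the 6 samples was most like that of the called genes with the largest and smallest fold change were found by distance. This was the Euclidean distance of log2(CPM + 0.5) centred on each gene's mean. The added 0.5 shrinks changes that end near 0 CPM, such as that of Serpinb5, and so affects which genes appear nearest to it. For Plat these were Apcdd1 (distance 0.105, 107.8 to 192.9 CPM), Gprc5b (0.107, 29.9 to 51.7 CPM) and Riok3 (0.151, 127.8 to 239.0 CPM). For Serpinb5 they were Lama3, an epithelial laminin chain (0.446, 64.3 to 1.59 CPM), Spint1, an inhibitor of matriptase and hepsin (0.489, 45.5 to 1.20 CPM), and Uty, a Y-linked gene (0.498, 20.9 to 0.1001 CPM).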

How the data were processed

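For each of the 6 samples the authors deposited raw read counts per RefSeq feature, and beside them an RPKM value, the count scaled by exon length and total reads. The RPKM values printed here were computed anew from the counts. The deposited RPKM implied totals of 99.1% to 99.32% of the summed counts and was used only for that check. Gene positions follow GRCm38. Aligner and counting program are not given in the sources used here, and strand handling is not stated.

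Counts were tested in R 4.3.3 with edgeR 4.0.16 (filterByExpr, minimum count 10; TMM; robust quasi-likelihood fit; Benjamini-Hochberg threshold 0.05 over all 13892 genes; no replicate block). The biological coefficient of variation was 0.184. CPM used TMM-scaled library sizes, and SE is the fold change divided by the square root of F. An exact two-sided permutation test served for single values (levels as log2(CPM + 0.5)), with 0.1 as its smallest p. Alternatives used DESeq2 1.42.0 and limma 3.58.1. Other steps used Python 3.11.15 with NumPy 2.4.6, SciPy 1.17.1, pandas 2.3.3 and matplotlib 3.10.9. The fit was also run on simulated counts as a check of the code. These had the same biological variation for every gene and no outlying sample, so they do not show how the fit behaves on these data. 6 list genes were matched through older symbols.

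The genes and lists were chosen with earlier results of these data known. Named beside the 8 genes are partners that were called and those needed to describe a role, the other serpins with the largest and smallest fold changes, tested neighbours within 200 kb and the 3 nearest genes by pattern. S100a10, Anxa2, Lrp1, 5033414D02Rik and Plg were added for their role after their values were seen. Replicate numbers were not used to pair the samples in the main fit. Deviations from group means correlated with r of 0.279, -0.205 and -0.0377 for equal numbers and -0.182 to 0.222 for unequal ones. With 3 samples a group this cannot settle whether the samples were paired. Protein sequences were not used here. A gene of the partner list enters the counts but is not reported here by name.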

Additional observations from a re-analysis of the deposited data

How the results depend on the processing

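Of 130 counts of calls recomputed under the alternatives, 114 stayed within 1.5 times the value reported, and of 90 values for single genes of the set 80 kept their direction and their side of the threshold. Plau (-3.619 to -3.497), Plat (0.779 to 0.891) and Serpinb5 (-8.146 to -6.683) did so under every alternative that could be computed, and Serpinb5 could not be fitted when 10 counts were required in every sample. With limma and sample weights, which gave vector replicate 3 a weight of 0.111, calls over all genes rose to 3977 higher and 4094 lower, calls in the set to 2 higher, and calls among the plasminogen partners to 2 higher and 7 lower, while Serpinb2 turned to 0.039. Leaving out 1 sample at a time gave 1784 to 3776 lower and 1861 to 3700 higher calls over all genes, the highest without vector replicate 3. The partners called higher ranged from 0 to 2 and lower from 4 to 7, the other serpins called higher from 1 to 2, and the log2 fold change of Serpinb2 from -0.214 to 0.06 and of Serpine2 from -0.276 to 0.01. The cause of these changes was not tested. With the replicate block, Serpinh1 (-0.399, adjusted p = 0.0507 by edgeR) and Serpinb6b (-0.57, adjusted p = 0.0823) lost their calls. Serpinh1 also did so without any 1 sample other than vector replicate 3 (-0.451 to -0.311), and Serpinb6b without vector replicate 2 or any 1 ZEB1 replicate (adjusted p from 0.0515 to 0.14). Depth limits Serpine2, Serpinf1 and the level of Serpinb5 in 393P_ZEB1.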

Other observations

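Uty, found above as 1 of the genes nearest to Serpinb5 in pattern, led to a look at other Y-linked genes, which were chosen after its values were seen. Ddx3y went from 39.2 to 0.250 CPM on average (log2 fold change -7.29, adjusted p = 1.73e-06 by edgeR), Eif2s3y from 35.1 to 0.0666 CPM (-9.03, adjusted p = 1.48e-06) and Kdm5d from 16.01 to 0.176 CPM (-6.49, adjusted p = 5.92e-07). All 4 of these genes of the Y chromosome were thus near the limit of detection in 393P_ZEB1 and well expressed in 393P_vector. In 393P_ZEB1, Eif2s3y and Uty (0.1001 CPM on average) were below the filter level of 0.1701 CPM, and Kdm5d was close to it. Eif2s3y and Uty passed the filter only through the vector group and therefore had to differ. Among the autosomes, the median log2 fold change was highest for chromosome 18, at 0.636. Genes on it include Zeb1 (1.26), Cdh2 (2.04), Pdgfrb (1.185) and Lman1 (0.65), and also Csf1r, which was lower (-1.82). Whether these differences follow from ZEB1 or from the derivation of the lines cannot be told apart with 1 pair of lines.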
